A study of Mus musculus with 8 samples.

Results

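Genes grouped as inhibitors of Wnt signalling, 8 in all, were followed in sorted dermal fibroblasts of mice: Sfrp1, Sfrp2, Frzb, Dkk2, Dkk3, Wif1, Nkd1 and Nkd2. Members were all probe sets of the array annotated to exactly 1 of these 8 genes, which gave 15 of the 45141 probe sets deposited. Tests per gene took, for each of 17097 genes, its probe set of highest mean signal, and all 8 members were among them. The set was gathered as secreted Wnt antagonists. Nkd1 and Nkd2 encode proteins that act inside the cell, so that 6 of the 8 are secreted. Of these, Dkk2 can inhibit or weakly activate the pathway, and Dkk3 is not established as a direct inhibitor of Lrp co-receptors.

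The array measured 8 animals, 4 given GW9662 and 4 given vehicle, with 1 array for each. GW9662, which blocks the nuclear receptor PPARG by binding it covalently, was put on the back skin of 12-month-old mice at 150 nmol in 300 µl acetone, 3 times a week over 6 months. Vehicle animals received the same volume of acetone alone on the same schedule. Fibroblasts of both groups were sorted from collagenase-digested skin, freed of the layer beneath the dermis, as Pdgfra-positive and Cd34-positive cells lacking CD45, CD117, CD24, CD31 and EpCam, and RNA of 5000 cells was amplified over 21 cycles. The sources used here give neither strain nor sex, and an antagonist put on skin may reach other cells besides fibroblasts. On each collection day 1 GW9662 and 1 vehicle animal were killed, and same-numbered animals were read as 4 pairs. The question was how long inhibition of PPARG bears on gene expression in fibroblasts of ageing skin.

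Wnt proteins are secreted signals that bind Frizzled receptors together with the co-receptors Lrp5 and Lrp6, which stabilises beta-catenin and lets it act with TCF/LEF factors on target genes. Secreted Frizzled-related proteins (Sfrp1, Sfrp2 and Frzb) and Wif1 bind the Wnt ligand outside the cell, while Dickkopf proteins such as Dkk2 bind Lrp co-receptors. In the dermis, Wnt signalling is known for its part in fibroblast identity and hair follicle cycling, and in precursor cells it restrains the formation of fat cells, which PPARG drives.

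In limma's test of GW9662 against vehicle, 0 of the 8 genes and 0 of the 15 probe sets passed an adjusted p of 0.05 (adjusted p = 0.997 for each), beside 0% of all genes and 0% of all probe sets. Among the 8 members, the Dickkopf genes Dkk2 and Dkk3 had the largest differences, both toward higher signal after GW9662. Dkk2 stood 0.57 higher on the log2 scale and Dkk3 0.24 higher, with both groups overlapping in each gene. The other 6 members differed by 0.20 or less. Outside the members, Dkk1 stood at -0.03 ± 0.07, Dkk4 at 0.005 ± 0.09 and Dkkl1 at 0.05 ± 0.07 (SE). At an unadjusted limma p under 0.05 there was 1 of the 8 genes, Dkk2, beside 3.38% of all genes (578 of 17097). It was higher, as were 1.57% of all genes called at that level, and 0 members were called lower, beside 1.81%. Groups overlapped in each of the 8 genes, where 0.708% of all genes were higher and 1.05% lower without overlap. By any amount 5 members were higher, beside 47% of all genes, and 3 lower, beside 51.8%. The median log2 difference was 0.029 over the 8 genes and -0.005 over all genes.

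A pair of promoter sequences is shown, that of Dkk2, because it had the largest difference of the members, and that of Frzb, because it alone of the members' promoters held AGGTCA, the core letters bound by nuclear receptors, the family of PPARG. Both are from RefSeq on GRCm38.p6 and run 5′ to 3′ on the gene's strand, over 300 bases around the start listed for the promoter. That start need not be the first base of the gene. The Nkd1 locus begins at chr8:88521342, before its promoter window at chr8:88527383-88527682. The promoter table held 6 of the 8 members. It had none for Sfrp1 and Dkk3, so these were not searched. Capitals mark a TATA box (TATAAA) in Dkk2, at chr3:132085042-132085341 on the plus strand, and AGGTCA, read on the opposite strand, in Frzb, at chr2:80447347-80447646 on the minus strand.
Dkk2: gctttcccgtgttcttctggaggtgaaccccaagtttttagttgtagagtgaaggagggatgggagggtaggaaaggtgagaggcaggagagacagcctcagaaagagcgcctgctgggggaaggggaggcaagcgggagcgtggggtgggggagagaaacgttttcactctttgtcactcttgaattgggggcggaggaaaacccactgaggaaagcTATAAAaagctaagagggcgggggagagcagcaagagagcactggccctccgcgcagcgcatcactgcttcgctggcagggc
Frzb: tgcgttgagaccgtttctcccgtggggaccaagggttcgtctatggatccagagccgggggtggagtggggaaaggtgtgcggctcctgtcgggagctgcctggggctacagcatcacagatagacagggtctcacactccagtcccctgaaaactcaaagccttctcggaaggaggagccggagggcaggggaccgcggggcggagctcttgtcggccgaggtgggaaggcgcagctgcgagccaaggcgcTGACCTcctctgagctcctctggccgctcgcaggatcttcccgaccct

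Each motif was searched on both strands of all 32851 promoters of 300 bases in the table. TATAAA was found in 13.6% of all promoters and in those of Dkk2 and Wif1 among the 6 members. In Dkk2 its first base lies 32 bases before the listed start, and in Wif1 it lies 232 bases before it on the opposite strand. AGGTCA was found in 16.3% of all promoters and in that of Frzb, where its first base on the gene's strand is base 3 after the start. The direct repeat known for PPARG with its partner RXR, AGGTCA then any 1 base then AGGTCA, overlaps that motif and was found in 0.0396% of all promoters and in 0 of the 6 members. The TCF/LEF motif CTTTGAT was found in 3.73% of all promoters and in 0 of the 6. These matches describe the letters of the window and were set against no signal.

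Some samples stood apart before any comparison. On the first principal component over genes, vehicle 4 lay at 22.16 and the other 7 samples between -10.42 and 5.49. The 9 probe sets of the bacterial hybridisation spike controls, which report on the hybridisation and not on the cells, averaged 7.42 on the log2 scale in GW9662 3 and 9.15 to 9.91 in the other 7 samples. The 3′ minus 5′ difference of the Gapdh control probe sets lay between -0.01 and 0.05 in GW9662 samples and between -0.06 and 0 in vehicle samples. That of beta-actin was -0.79 to -0.57 in GW9662 samples and -0.94 to -0.65 in vehicle samples, with vehicle 4 lowest. Values without GW9662 3 or without vehicle 4 are given below for Dkk2, Dkk3, Sfrp1, Nkd2, and the pathway genes that they move most, and the part of these measures in any result was not tested.

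Markers of the labelled cell type were looked up. All 8 fibroblast markers were measured, at a median signal percentile of 99.5 among all probe sets, while Pdgfra, the gene of a sort marker, averaged 4.96 after GW9662 and 4.86 in vehicle. Markers of 1 cell type differed widely in signal. Of Schwann cell markers, Pmp22 read 10.63 after GW9662 and 10.66 in vehicle, and Erbb3 read 3.80 and 3.75. Of immune cell markers, Cd68 read 8.20 after GW9662 and 8.24 in vehicle, and Ptprc read 2.89 and 2.90. The levels do not settle the purity of the sort. Over the fibroblast list, the mean level was 10.31 to 10.46 in GW9662 samples and 10.14 to 10.46 in vehicle samples. The mean levels of lists of other skin cells were compared between the groups only, since signal cannot be set against that of other probe sets. Dermal papilla genes (7 measured) averaged 4.84 to 5.08 after GW9662 and 4.83 to 4.89 in vehicle, and keratinocyte genes (8) averaged 4.99 to 5.08 after GW9662 and 5.01 to 5.08 in vehicle. Endothelial genes (8) averaged 4.79 to 5.06 after GW9662 and 4.74 to 5.16 in vehicle, and adipocyte genes (5) averaged 4.09 to 4.22 after GW9662 and 4.15 to 4.33 in vehicle. Mural cell genes (7 measured) averaged 5.71 to 5.94 after GW9662 and 5.86 to 6.01 in vehicle. In any marker list, those of immune cells (8), melanocytes (8) and Schwann cells (5) included, 0 genes had an unadjusted limma p under 0.05. Crabp1 of the dermal papilla list (4 higher, 3 lower) stood at 0.46 ± 0.24 (SE). Kcnj8 of the mural list (3 higher, 4 lower) stood at -0.39 ± 0.18. Each kept its sign in 4 of 4 pairs, beside 5.46% of all genes higher and 5.93% lower. In the other marker lists, Col3a1 and Kit were also higher in 4 of 4 pairs, and Dcn, Trp63, Cd52 and Lipe lower. In a sorted bulk sample, a change in the make-up of the cells and a change of RNA within them cannot be told apart.

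Signal differs between probe sets for reasons other than transcript amount, so levels were compared between samples and not between genes, and ranks serve only to place each set on the array's range. By rank among all 45037 probe sets tested, those of Sfrp1 (percentile 96.6), Nkd2 (96.1), Dkk3 (91.0) and Nkd1 (84.3) were bright, and Dkk2 was intermediate (63.2). The probe sets of Sfrp2 (36.5), Frzb (21.2) and Wif1 (3.46) were dim. The 3 probe sets of the bacterial Dap control, which matches no mouse gene, read 3.03 to 3.89 over the 8 samples. Wif1, at 2.92 to 3.07, lay at or below the low end of that range, and the first Frzb set, at 3.41 to 3.87, lay within it. Of the 8 Sfrp2 values, 3.71, 3.74 and 3.85 lay within it too. The values carry no detection calls, and whether these sets were above background was not tested.

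**Figure D1:**
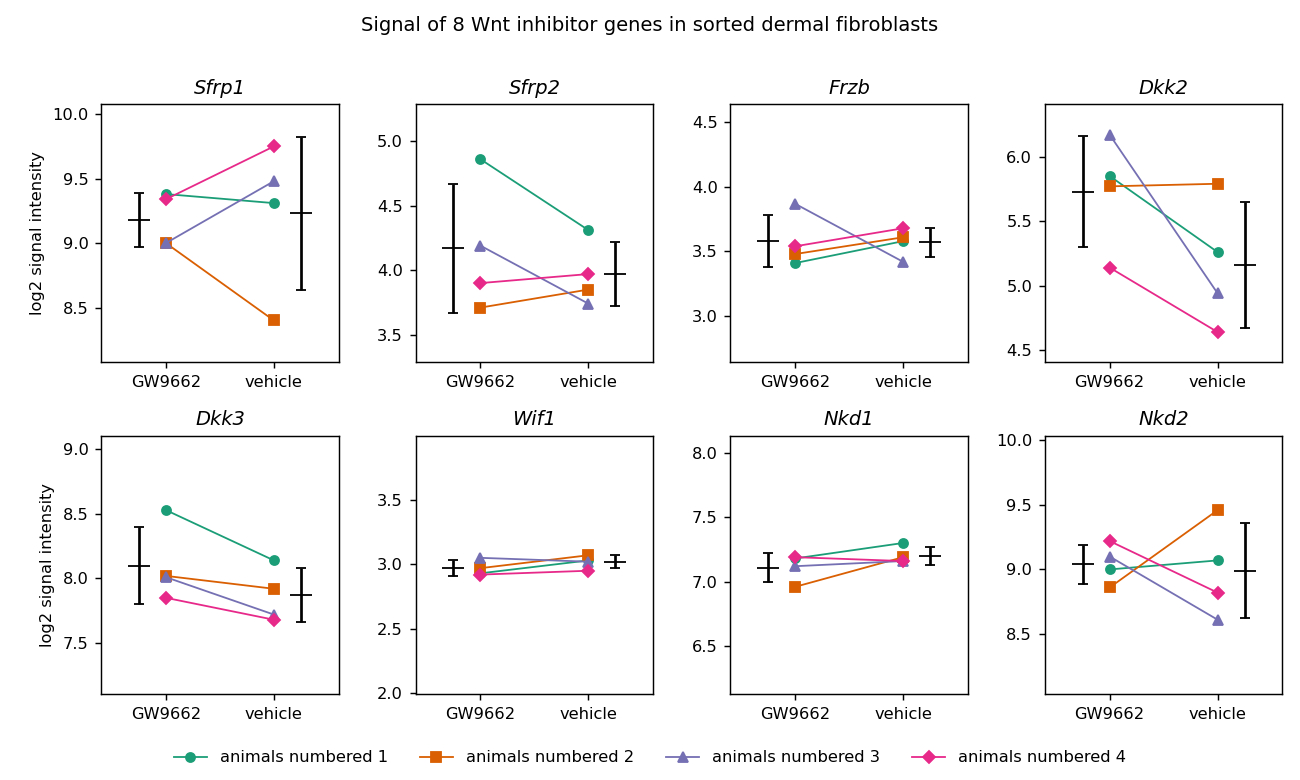
Log2 signal intensity (y axis, a span of 2 in each panel) of the probe set that stands for each gene, in GW9662 animals (left) and vehicle animals (right). Lines join same-numbered animals, and black bars give mean ± SD of 4 animals. Dkk2 and Dkk3 have the higher mean after GW9662, with overlapping animals.

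Dkk2, a Dickkopf protein that binds Lrp6 and can inhibit or weakly activate the pathway depending on context, measured 5.85, 5.77, 6.17 and 5.14 in GW9662 animals 1 to 4, against 5.26, 5.79, 4.94 and 4.64 in vehicle animals 1 to 4. GW9662 3 was highest, and GW9662 4 lay below vehicle 1 and vehicle 2, so the groups overlapped. The means were 5.73 ± 0.43 after GW9662 and 5.16 ± 0.49 in vehicle (SD, n = 4 each). The log2 difference was 0.57 ± 0.26 (SE), a ratio of 1.49, with a 95% interval from 0.0049 to 1.15 (limma p = 0.0484, adjusted p = 0.997; exact permutation p = 0.171, two-sided, over 70 assignments). Dkk2 was 1 of the 23 genes, or 0.135% of all, with a log2 difference above 0.5, and 0 members lay below -0.5, beside 0.0175%. Among probe sets these shares were 0.0866% above 0.5, with Dkk2 as the 1 member, and 0.0289% below -0.5, with 0. Such a cut-off takes no account of spread. The residual SD of Dkk2 within groups, 0.46, lay at percentile 99.4 of all genes.

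Within pairs, Dkk2 differed by 0.59, -0.02, 1.23 and 0.50 for numbers 1 to 4. Pair 3, which holds the sample with low spike controls, gave the largest value, and pair 2 gave none. With the replicate number as a block the interval was 0.18 to 0.97 (limma p = 0.0102, adjusted p = 0.966), while the exact sign-flip test of the pairs gave p = 0.25, where 0.125 is the smallest possible. Without GW9662 3 the difference was 0.43 and without vehicle 4 it was 0.40, each no longer under an unadjusted limma p of 0.05. The same held without GW9662 1, GW9662 2, vehicle 1 or vehicle 3, and not without GW9662 4 or vehicle 2. Without both GW9662 3 and vehicle 4, a choice made after the values had been seen, it was 0.26. That choice breaks pairs 3 and 4, and with 1 whole pair left out the difference was 0.36 to 0.77.

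Dkk3, a divergent Dickkopf protein that is secreted but is not established as a direct inhibitor of Lrp co-receptors, was read by a pair of probe sets. The brighter one measured 8.53, 8.02, 8.01 and 7.85 in GW9662 animals 1 to 4, against 8.14, 7.92, 7.72 and 7.68 in vehicle animals 1 to 4. GW9662 1 was the highest of all and vehicle 4 the lowest, with overlap between the groups. The log2 difference was 0.24 ± 0.15 (SE), with a 95% interval from -0.09 to 0.57 (limma p = 0.14, adjusted p = 0.997; exact permutation p = 0.257). Each pair was higher after GW9662, by 0.39, 0.10, 0.29 and 0.17. Dkk3 was the 1 member gene of 8 that was higher in 4 of 4 pairs, beside 5.46% of all genes.

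The second Dkk3 probe set followed the same order with small exchanges. It measured 8.56, 8.01, 8.12 and 7.87 in GW9662 animals, against 7.98, 7.94, 7.73 and 7.51 in vehicle animals, a log2 difference of 0.35 ± 0.15 (SE) with an interval from 0.01 to 0.69. Over all 45037 probe sets its limma p was 0.044 (adjusted p = 0.997; exact permutation p = 0.114). It was the 1 of 15 member probe sets with an unadjusted p under 0.05, beside 3.55% of all (1.81% higher and 1.74% lower). In that fit Dkk2 had an unadjusted p of 0.0517. With the block the limma p of the Dkk3 sets was 0.0108 and 0.00472 (adjusted p = 0.975 each; exact sign-flip p = 0.125 each). Groups overlapped in each of the 15 member sets, where 0.844% of all sets were higher and 1.06% lower without overlap. By any amount 8 sets were higher and 7 lower, beside 47.8% and 50.9% of all. Higher in 4 of 4 pairs were 2 of the 15 probe sets, both of Dkk3, beside 5.4% of all probe sets.

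Single animals weighed on the size of the Dkk3 difference. The second set differed by 0.26 without vehicle 4, by 0.36 without GW9662 3 and by 0.21 without GW9662 1, and in each case, as without vehicle 3 (0.33), it was no longer under an unadjusted limma p of 0.05. For the brighter set, without GW9662 1, the animal with the highest signal, the log2 value differed by 0.10, and with any other animal left out by 0.18 to 0.33. Without GW9662 3 it differed by 0.27 and without vehicle 4 by 0.18. Without both it differed by 0.21.

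**Figure D2:**
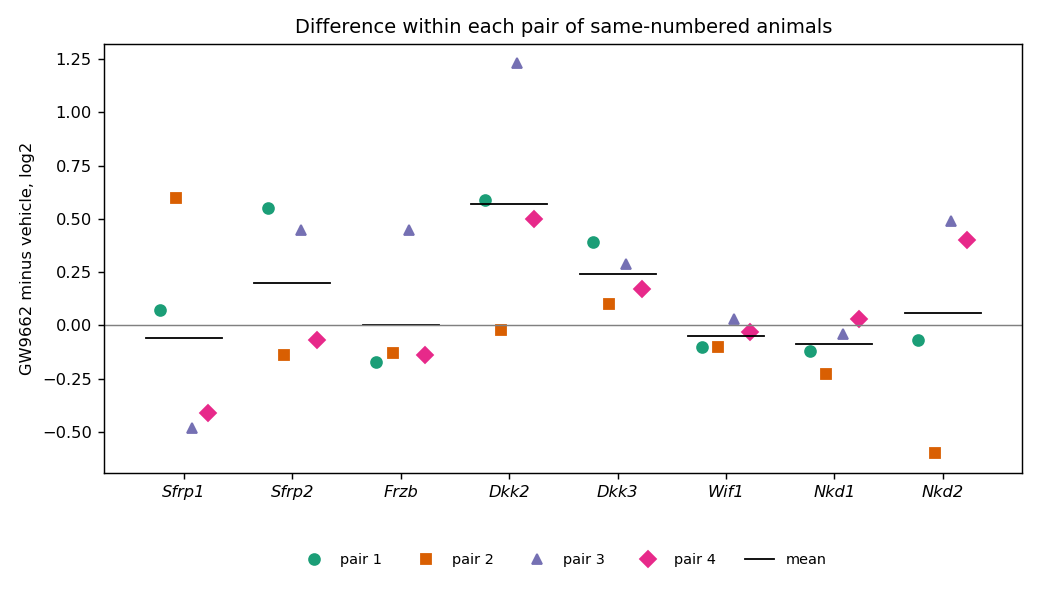
GW9662 minus vehicle on the log2 scale (y axis) within each of the 4 pairs of same-numbered animals, for the 8 genes (x axis), with the mean difference as a black line. All 4 pairs lie above 0 in Dkk3, and pair 2 is the highest in Sfrp1 and the lowest in Nkd2.

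Sfrp1, a secreted Frizzled-related protein that takes up Wnt ligand, had a wide spread in vehicle. It measured 9.38, 9.0, 9.0 and 9.34 in GW9662 animals 1 to 4, against 9.31, 8.40, 9.48 and 9.75 in vehicle animals 1 to 4. The lowest (vehicle 2) and the highest (vehicle 4) were both vehicle animals, and all GW9662 values lay between them. The means were 9.18 ± 0.21 after GW9662 and 9.23 ± 0.59 in vehicle (SD, n = 4 each). The log2 difference was -0.06 ± 0.24 (SE) with an interval from -0.60 to 0.49. Pair differences were 0.07, 0.60, -0.48 and -0.41, so that the sign turned with the pair. It was 0.005 without GW9662 3 and 0.12 without vehicle 4. Without vehicle 2, the lowest animal, it was -0.33, which had an unadjusted limma p under 0.05 (adjusted p = 0.935).

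A further 3 probe sets were annotated to both Serinc3 and Sfrp1 and are therefore no members. Serinc3 encodes an unrelated membrane protein. The order of the 8 samples in these sets was close to that of the Sfrp1 set, with Pearson r of 0.96, 0.98 and 0.93 and Spearman rho of 0.92, 0.97 and 0.80 over the 8 samples, given as a description. Vehicle 2 was lowest in each, at 7.10, 8.68 and 4.98. The 4 probe sets annotated to Serinc3 alone had r between -0.29 and 0.20 with the Sfrp1 set. The log2 differences of the 3 sets were -0.12, 0.02 and -0.11.

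**Figure D3:**
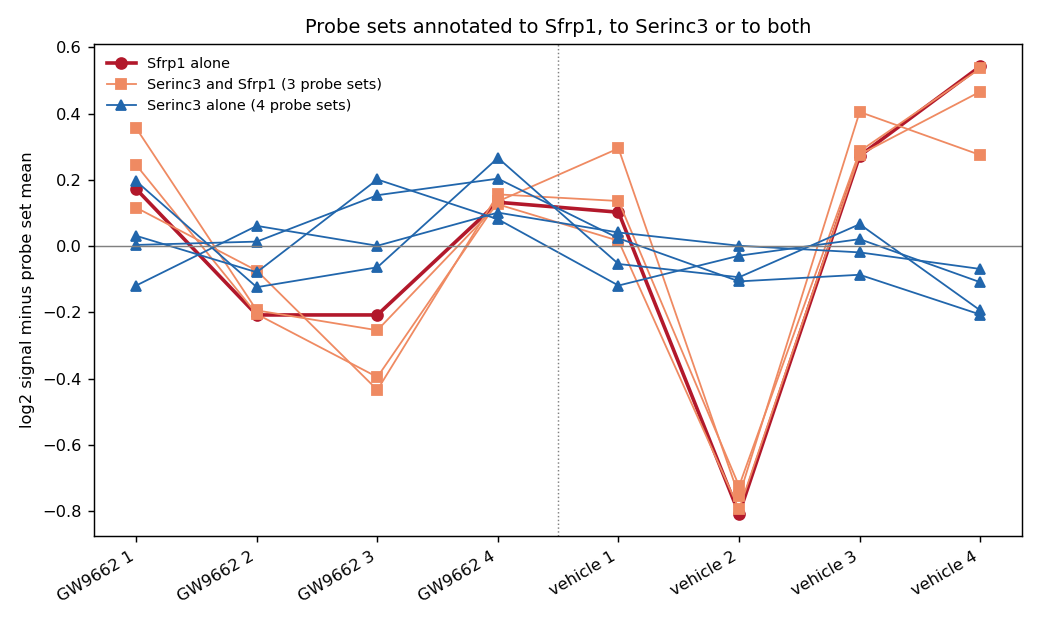
Log2 signal minus the mean of each probe set over the 8 samples (y axis) for the 1 probe set annotated to Sfrp1 alone, 3 annotated to both Serinc3 and Sfrp1, and 4 annotated to Serinc3 alone, with GW9662 samples left and vehicle samples right. The sets naming Sfrp1 are all lowest in vehicle 2, and the sets naming Serinc3 alone are not.

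Sfrp2, a related protein of dermal fibroblasts, had a dim probe set and 1 animal that led it. It measured 4.86, 3.71, 4.19 and 3.90 in GW9662 animals 1 to 4, against 4.31, 3.85, 3.74 and 3.97 in vehicle animals 1 to 4. GW9662 1 was highest, vehicle 1 next, and GW9662 2 was lowest. The log2 difference was 0.20 ± 0.22 (SE), with an interval from -0.29 to 0.69, and the pairs were split, with values of 0.55, -0.14, 0.45 and -0.07. Without GW9662 1 it was -0.03.

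Frzb, also called Sfrp3, is the third Frizzled-related member. Its first probe set measured 3.41, 3.48, 3.87 and 3.54 in GW9662 animals, against 3.58, 3.61, 3.42 and 3.68 in vehicle animals. The second measured 3.53, 3.45, 3.95 and 3.48 in GW9662 animals, against 3.36, 3.57, 3.44 and 3.65 in vehicle animals. GW9662 3, the sample with low spike controls, was highest in both sets. The log2 differences were 0.0025 ± 0.10 and 0.10 ± 0.11 (SE), and without GW9662 3 they were -0.10 and -0.02.

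Wif1, which binds Wnt proteins through its own WIF domain, measured 2.93, 2.97, 3.05 and 2.92 in GW9662 animals, against 3.03, 3.07, 3.02 and 2.95 in vehicle animals. All 8 values lay within 0.15 of one another. The log2 difference was -0.05 ± 0.06 (SE) with an interval from -0.18 to 0.08.

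Nkd1 and Nkd2 encode naked cuticle proteins, which bind Dishevelled inside the cell and are known as feedback inhibitors that Wnt signalling itself can induce. Nkd1 was read by 4 probe sets, all with lower mean signal after GW9662. The brightest measured 7.18, 6.96, 7.12 and 7.19 in GW9662 animals, against 7.30, 7.19, 7.16 and 7.16 in vehicle animals. Its log2 difference was -0.09 ± 0.07 (SE) with an interval from -0.25 to 0.07, and the groups overlapped. The other 3 sets had log2 differences of -0.06, -0.14 and -0.15. Since the 4 sets read 1 gene in the same animals, they are not separate evidence.

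The dimmest Nkd1 set had the smallest p of the 4. It measured 5.37, 5.46, 5.37 and 5.49 in GW9662 animals, against 5.68, 5.58, 5.40 and 5.65 in vehicle animals. Only vehicle 3 lay among the GW9662 values. Its log2 difference was -0.15 with an interval from -0.32 to 0.007 (limma p = 0.0589, adjusted p = 0.997; exact permutation p = 0.0857). This set and that at -0.06 were lower in 4 of 4 pairs, which makes 2 of 15 member probe sets beside 5.71% of all, and no member gene by its brightest set, beside 5.93% of all genes.

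Nkd2 had a bright probe set and 2 dimmer ones. The brightest measured 9.0, 8.86, 9.10 and 9.22 in GW9662 animals 1 to 4, against 9.07, 9.46, 8.61 and 8.82 in vehicle animals 1 to 4. As in Sfrp1, the highest and the lowest value were both in vehicle, here vehicle 2 and vehicle 3. The means were 9.04 ± 0.15 after GW9662 and 8.99 ± 0.37 in vehicle (SD, n = 4 each), a log2 difference of 0.06 with an interval from -0.30 to 0.41. The pair differences were -0.07, -0.60, 0.49 and 0.40. Each of the 4 pairs had the opposite sign in Sfrp1. The difference was -0.0017 without vehicle 4, 0.04 without GW9662 3, 0.21 without vehicle 2 and -0.07 without vehicle 3. The dimmer sets differed by -0.03 and 0.03, and vehicle 3 was the lowest sample in all 3.

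**Figure D4:**
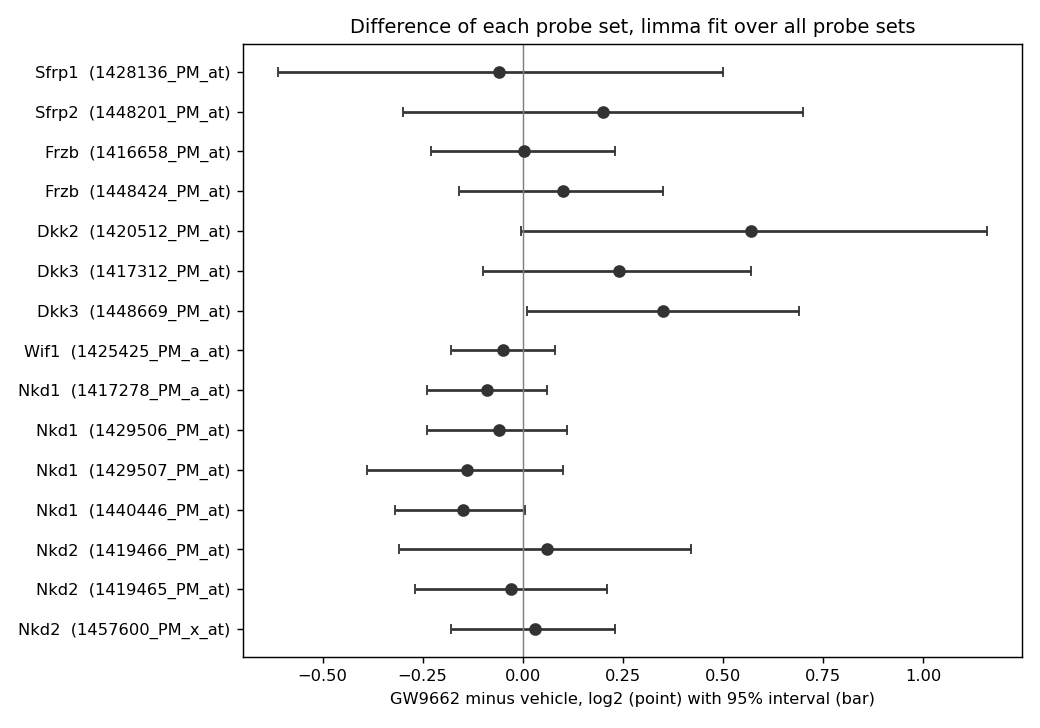
GW9662 minus vehicle on the log2 scale (x axis, points) with the 95% interval of limma's fit over all probe sets (bars) for the 15 member probe sets (y axis). The interval of 1 set, the second of Dkk3, lies above 0, and that of Dkk2 is the widest.

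Most of the members varied more between animals of 1 group than other genes did. The residual SD within groups was 0.46 for Dkk2, 0.44 for Sfrp1, 0.40 for Sfrp2, 0.28 for Nkd2 and 0.26 for Dkk3, against a median of 0.12 over all genes. By rank among all genes these lie at percentiles of 99.4, 99.2, 98.8, 95.8 and 94.3. Among the 1000 genes of most similar signal they lie at 99.3, 98.5, 99.6, 93.7 and 88.0. Frzb had a residual SD of 0.16, at percentile 76.3 among all genes and 96.8 among genes of similar signal. Wif1 at 0.05 (percentile 29.5 among genes of similar signal) and Nkd1 at 0.09 (16.2) were the quiet members. Over all 8 samples Dkk2 spanned a ratio of 2.89 between its highest and lowest animal and Sfrp1 one of 2.55. Sfrp2 spanned 1.15 on the log2 scale, with its low values in the range of the bacterial control.

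The order of the animals was compared with that of the 8252 or 8253 other genes of above-median signal and ordinary symbol, as a description over the 8 samples, which share arrays and pairs. The genes most like Dkk2 were Kazald1, which encodes a secreted Kazal domain protein, with r = 0.988 and an identical rank order (rho = 1), and Tusc3, with r = 0.976. Kazald1 measured 7.48, 7.17, 7.67 and 6.66 in GW9662 animals, against 6.69, 7.28, 6.31 and 5.80 in vehicle animals, a log2 difference of 0.72 ± 0.30 (SE; limma adjusted p = 0.997). Like Dkk2, it was low in vehicle 4 and high in GW9662 3. Genes with r over 0.9 numbered 43 for Dkk2, 17 for Dkk3, 12 for Nkd2 and 2 to 7 for the other 5.

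For the other members, the most similar pairs of genes were Sec62 and Gtf2ird1 for Dkk3 (r = 0.962 and 0.955), Aspa and Gli3, a transcription factor of the Hedgehog pathway, for Nkd2 (0.981 and 0.966), and Oas1b and Sgsm3 for Sfrp1 (0.935 and 0.934). Trim3 and Nat8 followed Sfrp2 (0.961 and 0.955), Dhx40 and Zfp444 followed Frzb (0.943 and 0.932), Tomm40l and Coq9 followed Wif1 (0.93 and 0.911), and Cpped1 and Dip2b followed Nkd1 (0.926 and 0.901). Each was picked as the highest of all genes compared, so a high r is what the choice gives. With the mean of each gene's probe sets, r was -0.11 for Dkk3 with Sec62, 0.22 for Frzb with Zfp444, 0.62 for Nkd1 with Cpped1, 0.59 for Nkd1 with Dip2b, 0.73 for Wif1 with Coq9 and 0.74 for Nkd2 with Gli3.

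**Figure D5:**
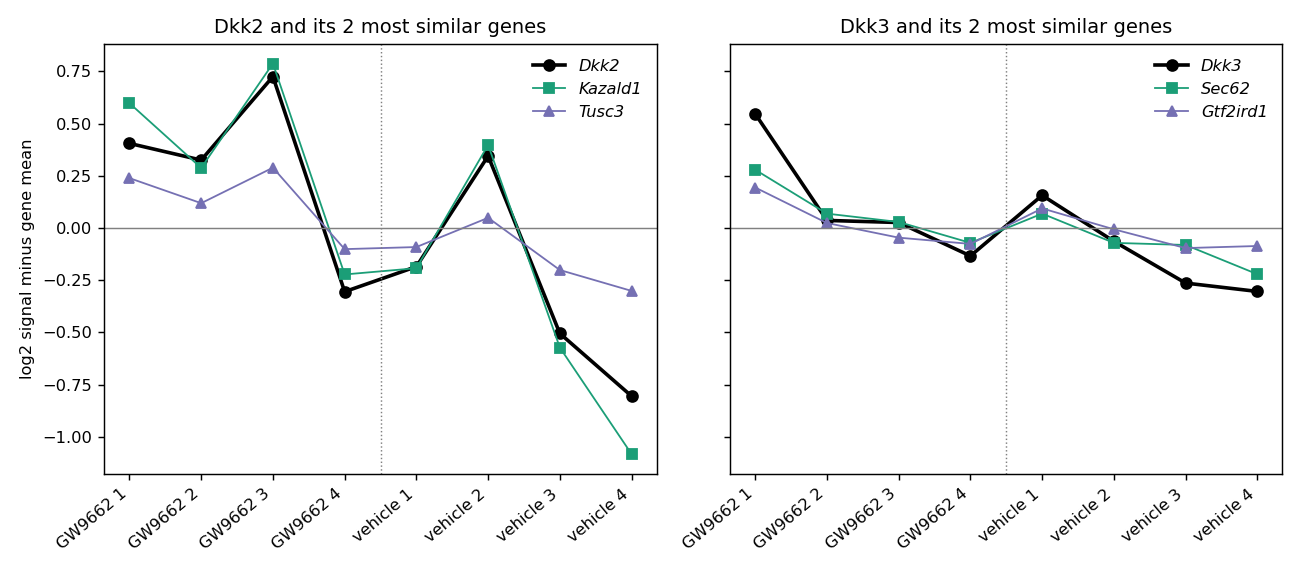
Log2 signal minus the mean of each gene over the 8 samples (y axis) for Dkk2 (left panel) and Dkk3 (right panel), each with its 2 genes of highest Pearson r, with GW9662 samples left and vehicle samples right of the dotted line. Kazald1 ranks the 8 samples exactly as Dkk2 does.

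Other genes of the pathway gave no call either. Among further secreted or membrane inhibitors, 18 of 22 genes were measured, 11 higher and 7 lower by any amount (median log2 difference 0.02). The members of smallest p were Tpbg, a membrane protein that restrains Wnt signalling, at 0.30 ± 0.15, Notum, an enzyme that removes the lipid of Wnt proteins, at -0.12 ± 0.07, and Shisa3 at -0.14 ± 0.08 (SE). Of the 18 genes, 0 were lower in 4 of 4 pairs, beside 5.93% of all genes, and Tpbg alone was higher in 4 of 4, beside 5.46%. Tpbg measured 9.33, 9.21, 9.62 and 9.07 in GW9662 animals, against 9.09, 8.89, 9.35 and 8.71 in vehicle animals. Its groups still overlapped, and it was 0.19 without GW9662 3, 0.20 without vehicle 4 and 0.09 without both. Leaving out both breaks pairs 3 and 4. With any single animal left out Tpbg differed by 0.19 to 0.41, and with any whole pair left out by 0.28 to 0.32. Notum and Shisa3, like Rspo2 and Lef1 among the lists that follow, read within or next to the range of the bacterial Dap control, so that whether they were above background was not tested.

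Among 26 Wnt ligands, R-spondins and secretion factors, 12 were higher and 13 lower (median -0.01), with Rspo2, which enhances Wnt signalling, at -0.11 ± 0.06, Wnt8b at -0.12 ± 0.07 and Wnt2b at -0.15 ± 0.11 (SE). Of 20 receptors and co-receptors, 11 were higher and 8 lower (median 0.02). Fzd8, a Frizzled receptor, stood at 0.20 ± 0.08, the co-receptor Lrp5 at -0.19 ± 0.09 and the receptor Ryk at -0.09 ± 0.06. Lrp5, which was -0.10 without vehicle 4, and Ryk were 2 of the 4 receptors lower in 4 of 4 pairs, beside 5.93% of all genes. Another of the 4, Tspan12, read 2.86 to 2.95, below the range of the bacterial Dap control. Higher in 4 of 4 pairs was 1 receptor, beside 5.46% of all genes. Among the 26 ligands, R-spondins and secretion factors, 1 was higher and 1 lower in 4 of 4 pairs, beside the same shares.

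Inside the cell, 26 of 29 transduction genes were measured, 9 higher and 17 lower (median -0.02), with the co-repressor Tle3 at 0.17 ± 0.08, Lef1, a TCF/LEF factor, at 0.12 ± 0.06 and Dact2, a Dishevelled-binding protein, at -0.12 ± 0.08 (SE). Tle3 was 1 of 2 genes of this list higher in 4 of 4 pairs, beside 5.46% of all genes, and 0 were lower in all, beside 5.93%. Of the known target genes of beta-catenin, 23 of 24 were measured, 11 higher and 12 lower (median -0.01). Cd44, the hyaluronan receptor, stood at 0.35 ± 0.14 and was the 1 target higher in 4 of 4 pairs, beside 5.46% of all genes. It measured 7.73, 7.57, 7.71 and 7.53 in GW9662 animals, against 7.42, 7.33, 7.58 and 6.81 in vehicle animals, with vehicle 4 far below the rest. Without vehicle 4 it was 0.19, and without GW9662 3 it was 0.33. Lower in 4 of 4 pairs were 2 of the 23 targets, beside 5.93% of all genes, both named after their values were seen. They were Axin2, a widely used readout of the pathway and itself a negative regulator, at -0.23 ± 0.14, and the transcription factor Sp5, at -0.11 ± 0.16 (SE). Axin2 measured 7.67, 7.63, 7.13 and 7.57 in GW9662 animals, against 7.76, 8.01, 7.44 and 7.69 in vehicle animals, with overlap between the groups. Next to Cd44 in p were Lef1 and Notum, which belong to this list too.

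At an unadjusted limma p under 0.05 there were Fzd8 among the receptors and Cd44 among the targets, both higher, beside 1.57% of all genes called higher at that level. Fzd8 was no longer under it without GW9662 2 (0.20), GW9662 4 (0.15), vehicle 2 (0.17) or vehicle 4 (0.17), and Cd44 without GW9662 1 (0.32), GW9662 3 (0.33) or vehicle 2 (0.36). The other 3 lists had 0 such genes, and no gene of the 5 lists passed the adjusted test.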

How the data were processed

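The deposited values are log2 signal intensities of 45141 probe sets, made by the authors with RMA in the affy package, per the submitters' processing notes, which give no versions. RMA corrects background, makes the arrays' distributions alike and combines each set's probes, so differences in total signal between samples are removed. The log base, not given in the sources used here, was taken as 2 because of how far the values extend. Sample medians lay between 4.63 and 4.69. Precision here is limited by there being 4 animals a group. Per the labels' protocols, 7.8 µg of amplified cDNA was labelled. Amplification from few cells can alter relative signal.

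Gene names came from GEO's annotation of the array, updated with RefSeq's mouse gene table (GRCm38.p6). Of them, 28898 had 1 gene, 551 had several and 15692 none, among these 104 controls, and 209 kept the annotation's symbol. GW9662 minus vehicle was tested two-sided by limma 3.58.1 under R 4.3.3, using lmFit then eBayes without covariates or a signal filter, with Benjamini-Hochberg adjustment over all 17097 genes or all 45037 probe sets and a threshold of 0.05. Exact permutations of 70 assignments (smallest p = 0.0286) and exact sign flips of pairs (smallest p = 0.125) were run beside it. The procedure was run on simulated data without pairs as a check of the code, and no statement on power is drawn from it. Alternatives were the block, variance model, dim genes left out, mean of probe sets, scaling, array weights, and samples or pairs left out.

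Named genes were the 8 members, the 3 of smallest unadjusted p in each of 5 Wnt lists and the 2 genes most correlated with each member. The members and lists were chosen with earlier results of these data known. The deviations of same-numbered samples from their group means correlated at 0.203, 0.163, 0.114 and 0.165 for numbers 1 to 4, and the design text gives each collection day 1 animal from either group, so the numbers were read as pairs. No samples shared more than 3.04% of their values, and correlations ranged from 0.990 to 0.997, so all 8 counted separately.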

Additional observations from a re-analysis of the deposited data

Results flagged for a closer look

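A single animal stood apart from the other 3 of its group, by a gap of most of the group's range, in 5 of 70 groups examined. Chance flags about 1 group in 20. In the second Frzb probe set, GW9662 3 measured 3.95, against 3.45 to 3.53 in the other GW9662 animals. In the Dact2 gene, GW9662 2 measured 6.68 (others 6.53 to 6.54) and vehicle 3 measured 6.50 (others 6.75 to 6.77). In the Rspo2 gene, vehicle 1 measured 3.45 (others 3.30 to 3.32). In the beta-actin control, the 3′ minus 5′ difference was -0.94 in vehicle 4 (others -0.69 to -0.65).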

How the results depend on the processing

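The calls at an adjusted p of 0.05 numbered 0 of all genes, 0 of all probe sets and 0 members, and stayed at 0 under every alternative run, except that 1 gene passed 0.05, and 1 gene and 1 probe set passed 0.1, without replicate 4 in both groups with the replicate block. Pairing by number (the replicate block) took the members at an unadjusted p under 0.05 from 1 to 2 genes and from 1 to 3 probe sets. Over all features it took that count from 578 to 825 of 17097 genes and from 1597 to 2185 of 45037 probe sets. It changed no adjusted call over all animals. The count of member genes was 0 with trended and robust variances, the mean of probe sets, median centring or array weights. It was 0 to 2 with 1 animal left out. Without pairs it was 0 (pair 1 or 3), and with the block 3 (without pair 2) or 2 (without pair 3 or 4). The count of member probe sets was 2 among brighter sets and 0 to 3 with 1 animal left out. It was 0 without pair 1 and 2 without pair 2 or 4. With the block it was 2, 3, 4 and 4 without pairs 1 to 4. Without vehicle 4 and GW9662 3 both counts were 0. Over all genes, 578 had an unadjusted p under 0.05, against 256 among brighter genes, 367 to 888 with 1 animal left out (381 without GW9662 3), 376 and 868 without pair 1 and pair 4, and 956 and 985 with the block without pair 2 and pair 4. Over all probe sets, 1597 had one, against 716 among brighter sets, 1049 to 2265 with 1 animal left out, and 2557 and 2636 with the block without pair 2 and pair 4. Dkk2, Dkk3, Wif1 and Nkd1 by their brightest sets kept their sign in all alternatives, with Dkk2 between 0.26 and 0.79. Sfrp1 turned to 0.05 with array weights, ranged from -0.33 to 0.12 with 1 animal left out, and was 0.18 without vehicle 4 and GW9662 3 and 0.09 and 0.06 without pair 3 and pair 4. Sfrp2 ranged from -0.03 to 0.35 and Frzb from -0.10 to 0.06 with 1 animal left out. Frzb was -0.06 without vehicle 4 and GW9662 3 and -0.15 without pair 3. Nkd2 was -0.02 with array weights, -0.07 to 0.21 with 1 animal left out, -0.02 without vehicle 4 and GW9662 3, and -0.09 and -0.06 without pair 3 and pair 4. Its other sets ranged from -0.12 to 0.04 and from -0.06 to 0.07 with 1 animal left out, the first being 0.02 and 0.08 without pair 1 and pair 2 and the second -0.06 without pair 3. An Nkd1 set turned to 0.0067 without vehicle 4 and GW9662 3. The second Frzb set ranged from -0.02 to 0.15 and was -0.04 without pair 3. These values without pairs were the same with the block. The r of Dkk3 and Sec62 was -0.11 with the mean of probe sets. The causes were not tested.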

Other observations

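Among the members, the highest Pearson r over the 8 samples was 0.85, for Sfrp2 and Dkk3, whose Spearman rho was 0.48 and which were both highest in GW9662 1. The highest rho was 0.71, for Dkk2 and Dkk3 (r = 0.62). The most opposed were Sfrp1 with Nkd2, at -0.71 (rho -0.71), and Sfrp1 with Dkk2, at -0.70 (rho -0.68). The samples share pairs and arrays, and these values are a description. The probe sets annotated to both Serinc3 and Sfrp1, which the choice of members leaves out, had the same lowest sample as the Sfrp1 set, vehicle 2.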
